A study of Homo sapiens with 20 samples.

Results

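The data are RNA-seq read counts per gene from K562 cells, a human leukaemia line of erythroid and megakaryocytic character, with NAT10 knocked out or intact. All 4 RNA-seq libraries of the 20 samples in the series were used, chosen by their labels: 2 NAT10 knockout libraries, in which CRISPR-Cas9 removed the fifth exon, and 2 libraries of the parental wild type cells. Both genotypes were grown in the same serum-containing RPMI-1640 medium with no treatment, and no source used here says whether the knockout is a single clone. The knockout libraries held 18093324 and 18778485 counts and the wild type libraries 10388717 and 12725302.

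NAT10 is a nuclear and nucleolar RNA acetyltransferase. It places N4-acetylcytidine on 18S ribosomal RNA, where it also takes part in small subunit maturation, on serine and leucine tRNAs with the adaptor THUMPD1, and, as reported, on mRNA.

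The spread between libraries differed sharply between the genotypes. Over genes whose 2 libraries summed to 20 counts or more, the knockout pair differed by little more than counting noise (chi-square divided by its degrees of freedom, 1.03), while the wild type pair gave 12.47. The knockout libraries cannot be told apart from one preparation sequenced again, and they were summed and counted as 1 sample, so the fit set 1 knockout sample against 2 wild type libraries with 1 residual degree of freedom. The labels do not say that the wild type libraries came from separate cultures, so p-values measure no more than the scatter of these libraries, and that scatter may be technical. Every fold change is log2 of knockout over wild type, and levels are CPM, read counts scaled to library size with TMM factors. A gene is called risen or fallen when its edgeR quasi-likelihood Benjamini-Hochberg adjusted p was under 0.05.

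The cells carried the markers of their label. All 12 erythroid identity genes were detected above 3 counts, with a summed level of 1830 and 1810 CPM in knockout against 1560 and 1590 CPM in wild type. The sum does not stand for each member, as 5 rose and 1 fell. HBZ had 243 and 245 CPM in knockout against 56.6 and 60.8 CPM in wild type. GATA1 had 278 and 268 CPM in knockout against 355 and 377 CPM in wild type. The defining megakaryocyte genes GP9, PF4 and PPBP were at 0 in every library, as were S100A8 and S100A9 of myeloid cells, MS4A1 of B cells and LUM of fibroblasts. Other lineage markers were sparse: their lists summed to between 3.33 and 40.7 CPM in knockout and between 5.56 and 51.0 CPM in wild type, led by EPCAM, CD3D, ITGA2B and LYZ. In bulk RNA, fewer cells of a type and less RNA per cell cannot be told apart.

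NAT10 itself stood at 50.1 and 49.4 CPM in the knockout libraries and at 136 and 148 CPM in wild type. Its fold change was -1.51 (SE 0.085, edgeR adjusted p = 0.000102), with -1.44 against wild type replicate 1 and -1.57 against replicate 2. The counts cover all exons, so reads that remain do not measure intact transcript.

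Across 16277 tested genes, 2271 were called, which is 14.0%. Of these 841 rose, or 5.17% of tested genes, and 1430 fell, or 8.79%, while the median fold change of all tested genes was 0.00. Of the called changes 839 were under 0.5 log2 units in size, and 57 rises and 176 falls reached 2 log2 units. Calls were least frequent among genes with a mean log2 CPM under 2 (4.99% of 4670) and most frequent between 5 and 8 (20.7% of 5829), where the median standard error was 0.08 against 0.52 in the lowest class. DESeq2 called 1042 genes (287 higher, 755 lower), and 5476 passed when the knockout libraries were kept apart. When no low-count filter was applied, higher calls outnumbered lower ones, at 1925 and 1588.

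Each change was then read against each wild type library alone. All 2271 called genes had the same sign against both libraries, as did 78.7% of all tested genes. In all 2271 both knockout libraries lay outside the wild type range, as 68.6% of all tested genes did. With 1 knockout sample against 2 wild type libraries a call is hardly reached otherwise, so this agreement is no separate support. The smaller of the 2 folds had a median size of 0.56 log2 units and the larger 0.67, and 35 called genes were within 0.25 log2 units of a wild type library. At least 1 log2 unit from both wild type libraries lay 223 genes on the higher side (1.37% of tested genes) and 674 on the lower side (4.14%), of which 138 and 412 were called. A further 1228 genes passed 1 log2 unit against only 1 wild type library, 784 of them only against replicate 1 and 444 only against replicate 2, and 129 of the 1228 were called. The wild type libraries differed from each other by more than the fitted knockout change in 36.3% of tested genes.

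**Figure D1:**
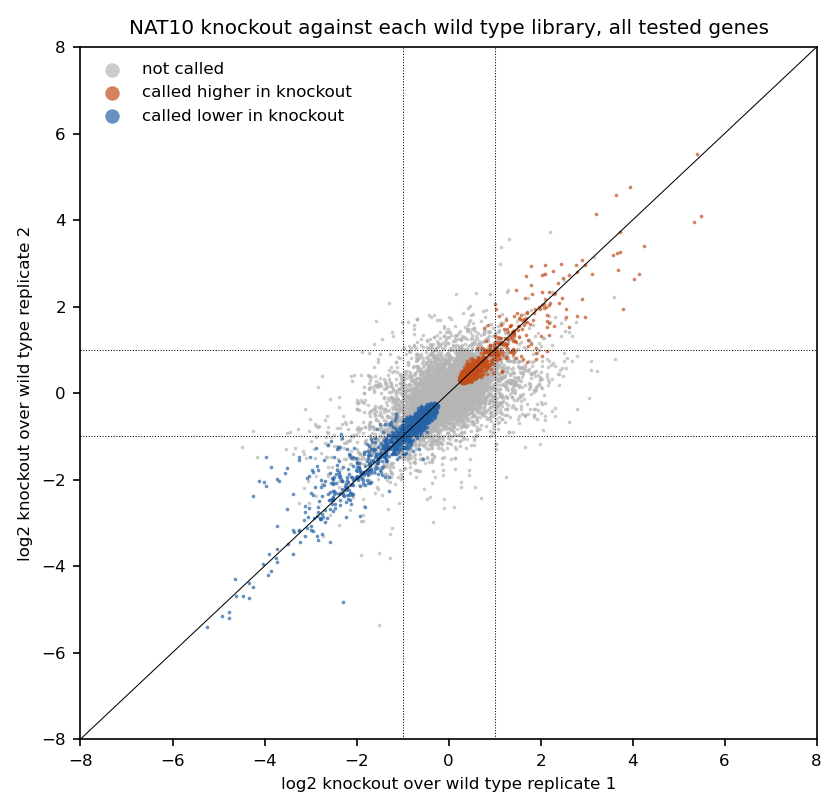
Each point is a tested gene, placed by its log2 ratio of knockout to wild type replicate 1 (x axis) and to replicate 2 (y axis); orange and blue points are called higher and lower, grey points are not called, dotted lines mark 1 log2 unit and the solid line equal ratios. The 2271 called genes lie in the upper right and lower left quadrants, all but 45 of them with ratios within 1 log2 unit of each other.

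Among abundant protein-coding genes, those at 5 or more on the mean log2 CPM scale, the largest rises took in a secreted growth factor, globins and membrane-associated proteins. IGF1, the insulin-like growth factor ligand, reached 158 and 160 CPM in knockout against 31.7 and 31.9 CPM in wild type (2.32, SE 0.074, edgeR adjusted p = 9.18e-06). HBZ, the embryonic alpha-like globin, stood at 243 and 245 CPM in knockout against 56.6 and 60.8 CPM in wild type (2.05, SE 0.074). For both genes every knockout value was above 2 times either wild type value. HBA1 (1.16) and HBG1 (1.17) also rose, but each has a near-identical copy and its reads are uncertain.

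Beyond IGF1 and the globins, ANXA1, a calcium-dependent phospholipid-binding protein, had 248 and 240 CPM in knockout against 93.1 and 90.9 CPM in wild type (1.41, SE 0.069). FAT1, a giant cadherin, had 73.9 and 70.8 CPM in knockout against 30.1 and 30.4 CPM in wild type (1.26, SE 0.095). CDKN1A, the cyclin-dependent kinase inhibitor p21, had 72.0 and 66.1 CPM in knockout against 34.7 and 31.7 CPM in wild type (1.06, SE 0.10, edgeR adjusted p = 0.000793). The groups did not overlap in any of them, which holds for every called gene. MACC1, a regulator of MET transcription, rose by 1.15, CLIC2, an intracellular chloride channel family protein, by 1.03, HEMGN, a nuclear protein of haematopoietic cells, by 1.00 and CAV2, a caveolin, by 0.98. HMGA2, an architectural chromatin protein, was lower in level and had the lowest adjusted p after FYB1 together with IGF1, with 52.7 and 52.1 CPM in knockout against 1.13 and 1.05 CPM in wild type (5.58, SE 0.17, edgeR adjusted p = 9.18e-06).

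The largest falls included signalling proteins of blood cells. FYB1, an adaptor downstream of immune and platelet receptors, was close to absent in knockout, with 2.44 and 3.58 CPM, and had 118 and 134 CPM in wild type (-5.38, SE 0.13, edgeR adjusted p = 3.89e-06). ARHGDIB, a regulator of small GTPases in blood cells, had 13.9 and 12.7 CPM in knockout against 88.3 and 98.0 CPM in wild type (-2.81, SE 0.11). These falls were close in size against either wild type library: FYB1 stood at -5.24 and -5.42 and ARHGDIB at -2.72 and -2.87.

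NAV1, a microtubule-binding protein of growing neurites (-2.29), PTPRB, a receptor tyrosine phosphatase of blood vessels (-2.23), FEV, an ETS transcription factor (-2.17), KCTD15, a BTB-domain protein (-2.34), and the secreted IGF-binding protein IGFBP4 (-1.98) also fell. In 4 further abundant genes the call held but its size rested on the wild type library. RHBDL3, a rhomboid-like membrane protein, had 8.99 and 9.46 CPM in knockout against 88.2 and 27.0 CPM in wild type, which is -3.24 against replicate 1 and -1.54 against replicate 2. APOBR, a lipoprotein receptor, had -3.07 and -1.96, the forkhead factor FOXE3 -2.85 and -1.69, and the ubiquitin ligase HECTD2 -2.43 and -1.77. DESeq2 did not call RHBDL3 or FOXE3.

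**Figure D2:**
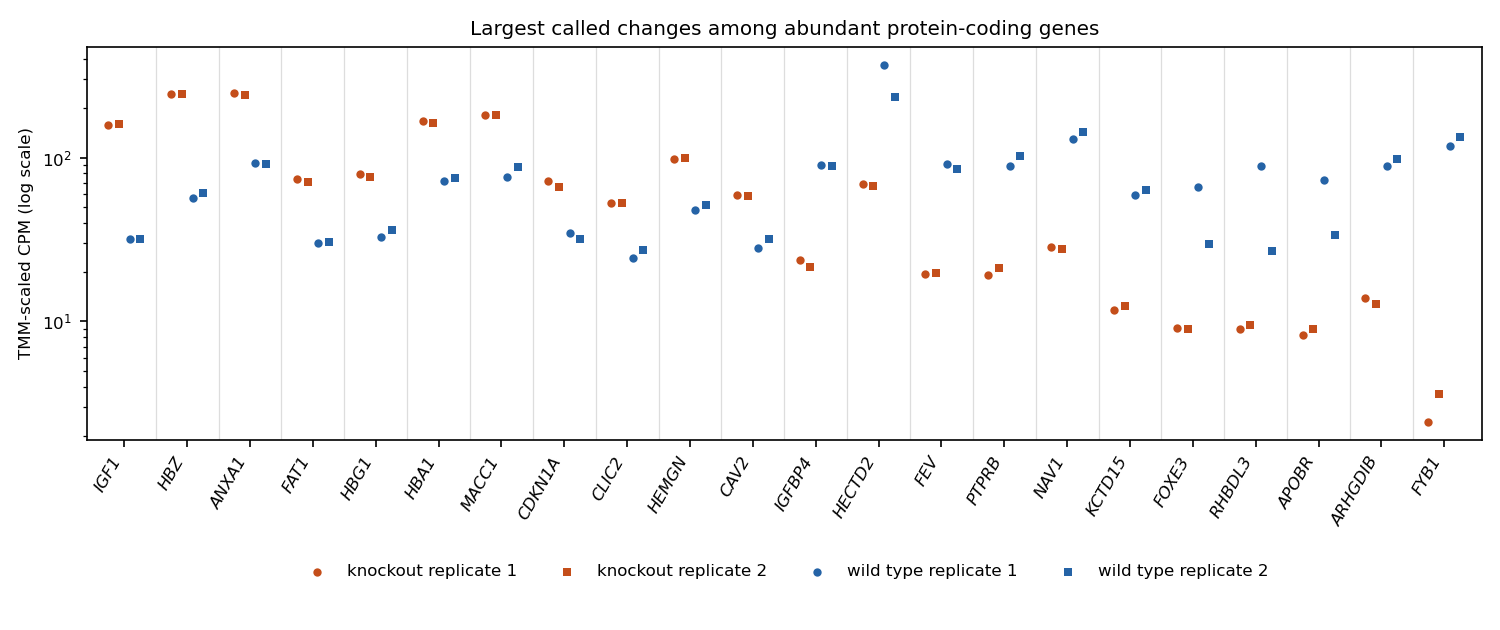
TMM-scaled CPM on a log axis for called abundant protein-coding genes with the largest rises and falls, 22 in all, ordered by fold change; orange marks are knockout libraries and blue marks wild type libraries, circles replicate 1 and squares replicate 2. The orange marks of a gene coincide nearly everywhere, while the blue marks of RHBDL3 spread between 27.0 and 88.2 CPM.

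Across 53 functional lists, several had falls and no rise: antigen presentation, lysosomal genes, integrins, extracellular matrix and cytokine and growth factor receptors were the ones with the highest shares of falls among them. Integrins and their cytoplasmic partners had 0 rises and 8 falls among 22 tested members, which is 36.4% lower against 8.79% of all tested genes, with a median of -0.50 (-0.50 and -0.49 against the 2 wild type libraries). ITGA2B, the platelet integrin alpha IIb, had 8.88 and 9.36 CPM in knockout against 25.9 and 23.8 CPM in wild type (-1.45), which makes up nearly all of the megakaryocyte marker sum (8.93 and 9.41 CPM in knockout, 26.0 and 23.8 CPM in wild type), and the part of such cells in the result was not tested. PXN, the focal adhesion scaffold paxillin, fell by 0.90, and ILK, the integrin-linked kinase, by 0.66. ILK lies on the stretch of chromosome 11 described below, and the list had 7 falls among its members off that stretch.

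Extracellular matrix genes had 0 rises and 9 falls of 26, with a median of -0.48. Among them AGRN, the proteoglycan agrin, had 58.0 and 56.6 CPM in knockout against 115 and 102 CPM in wild type (-0.91), the laminin chain LAMB1 fell by 1.18 and the collagen chain COL4A5 by 3.58 at a low level. Semaphorins, ephrins and other axon guidance genes had 1 rise and 9 falls of 29 (median -0.53): SEMA6B fell by 1.34, PLXNB2, a semaphorin receptor, by 0.68 and SEMA4C by 0.51, and EPHB6, a kinase-dead ephrin receptor, rose by 0.61. Cytokine and growth factor receptors had 0 rises and 12 falls of 44 (median -0.42), with DDR1, a collagen receptor kinase (-0.78), and LIFR, the receptor for leukaemia inhibitory factor (-1.29). Cadherins and protocadherins showed no shared direction, with 3 rises and 3 falls of 21: FAT1 and PCDH9 (2.18) rose, as did PCDH10, whose counts gave a ratio of 50.5 (95% exact counting interval 13.7 to 420) over the few wild type counts, and CELSR1 (-1.26), CELSR2 (-0.52) and, on the chromosome 11 stretch, DCHS1 (-1.74) fell.

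Genes of antigen presentation fell more often than those of any other list, with 0 rises and 12 falls of 26, or 46.2%, and a median of -0.46. HLA-E, the ligand of natural killer cell receptors, had 19.8 CPM in both knockout libraries against 73.8 and 77.8 CPM in wild type (-1.94, SE 0.099, edgeR adjusted p = 6.39e-05). TAPBP, or tapasin, which loads peptide on class I molecules, had 65.4 and 65.0 CPM in knockout against 117 and 113 CPM in wild type (-0.82), and the adhesion molecule NECTIN2 fell by 1.18. The genotypes do not overlap in these, as in every called gene. HLA genes are polymorphic and alike in sequence, so single members are uncertain. In the list of innate RNA and DNA sensing, 1 gene rose (IRAK1, 0.41) and 5 of 32 fell, with STING1, the cyclic dinucleotide sensor, at 45.6 and 47.4 CPM in knockout against 86.6 and 92.1 CPM in wild type (-0.94) and TRIM25 lower by 0.63.

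Haematopoietic adaptors and phosphatases had 3 rises and 13 falls of 39 (median -0.16, set against -0.14 and -0.25 by library). FYB1 had the largest fall, and INPP5D, the lipid phosphatase SHIP1 (-2.68), and CD37, a leukocyte tetraspanin (-2.0). SH3BP2, an adaptor of blood cells, rose to 96.0 and 93.8 CPM in knockout against 51.6 and 49.2 CPM in wild type (0.91), and PTPRC, the leukocyte phosphatase CD45, rose by 2.24 at a low level (4.61 and 4.06 CPM in knockout, 0.942 and 0.886 CPM in wild type), a call that DESeq2 did not make. Chemokines and their receptors were mostly too low to test (10 of 39), and the receptors CCR4 (-3.21) and ACKR2 (-1.01) fell while CXCL2 rose by 0.91.

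Lysosomal hydrolases and membrane proteins had 0 rises and 24 falls of 61, or 39.3%, with a median of -0.42 (-0.37 against replicate 1 and -0.44 against replicate 2). In 46 members (75.4%) both knockout libraries were below both wild type libraries and in 2 members above, so that 78.7% lay outside the wild type range, against 68.6% of all tested genes (34.5% below and 34.1% above). PSAP, the precursor of saposins that assist sphingolipid breakdown, had 139 and 138 CPM in knockout against 265 and 259 CPM in wild type (-0.92, SE 0.081). The peptidase TPP1 had 16.9 and 17.4 CPM in knockout against 42.2 and 42.1 CPM in wild type (-1.30), and CD63, a tetraspanin of late endosomes, had 59.6 and 59.9 CPM in knockout against 95.4 and 91.0 CPM in wild type (-0.64). No group of values overlaps in these genes, as in every called gene. TPP1 is 1 of 3 list members on the chromosome 11 stretch, and without them 21 fell and the median was -0.36. The autophagy list had 2 rises (MAP1LC3B, 0.39, and BNIP3, 0.62) and 1 fall (SQSTM1, -0.41) of 54 with a median of 0.03, and the difference between the lists was not tested.

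Many lysosomal promoters are known to carry a CLEAR element, the binding motif of the transcription factor TFEB, whose core is the palindrome CACGTG. RefSeq promoter windows (GRCh38.p14, 250 bases before to 50 after the start) were available for 43 of the 61 tested lysosomal genes, and 15 of them, or 34.9%, held CACGTG, against 12.6% of the windows of all tested genes and 8.77% of all windows. The motif reads the same on both strands, and the search covered each gene's windows with any match counted once. The shares were close in called and uncalled members: 5 of 14 fallen lysosomal genes with a window held it (35.7%) and 10 of 29 not called (34.5%). The 3 windows here, chosen after the values were seen to show a single and a repeated core in genes that fell, are from CD63, from NEU1, the sialidase (24.5 and 25.7 CPM in knockout, 39.2 and 42.1 CPM in wild type, -0.70), and from LAMP1, the major lysosomal membrane protein (35.3 and 36.9 CPM in knockout, 45.4 and 50.8 CPM in wild type, -0.42, a call lost in DESeq2). Capitals mark each CACGTG, and the sequences run 5′ to 3′ on the gene's strand.
CD63, chr12:55728960-55729259 (- strand): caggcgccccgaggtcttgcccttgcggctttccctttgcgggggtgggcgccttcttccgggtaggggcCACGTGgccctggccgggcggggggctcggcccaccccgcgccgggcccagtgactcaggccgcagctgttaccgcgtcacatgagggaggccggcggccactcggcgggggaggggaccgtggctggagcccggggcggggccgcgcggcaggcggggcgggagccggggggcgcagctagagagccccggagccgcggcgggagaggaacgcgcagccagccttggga
NEU1, chr6:31862772-31863071 (- strand): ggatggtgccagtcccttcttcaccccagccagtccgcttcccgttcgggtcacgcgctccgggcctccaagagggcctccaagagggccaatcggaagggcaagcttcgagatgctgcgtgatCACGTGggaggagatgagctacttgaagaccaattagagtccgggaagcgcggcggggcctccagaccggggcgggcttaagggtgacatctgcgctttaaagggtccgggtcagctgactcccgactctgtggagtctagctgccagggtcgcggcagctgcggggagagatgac
LAMP1, chr13:113296989-113297288 (+ strand): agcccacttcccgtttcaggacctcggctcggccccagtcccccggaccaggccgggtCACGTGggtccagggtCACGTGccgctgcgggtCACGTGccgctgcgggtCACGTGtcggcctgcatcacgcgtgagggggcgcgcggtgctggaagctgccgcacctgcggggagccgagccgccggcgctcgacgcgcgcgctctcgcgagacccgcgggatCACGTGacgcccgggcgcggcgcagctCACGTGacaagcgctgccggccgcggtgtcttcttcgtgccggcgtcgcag
CD63 and NEU1 held the core at 1 place and LAMP1 at 6. A match is only a string of letters and does not show a bound site.

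Genes of the secretory route and of lipid synthesis also leaned down. Translocation into the endoplasmic reticulum and N-glycosylation had 2 rises and 13 falls of 73 (median -0.11). DDOST, a subunit of the oligosaccharyltransferase, had 53.3 and 53.4 CPM in knockout against 96.5 and 95.5 CPM in wild type (-0.85), and PRKCSH, the glucosidase II beta subunit, had 126 and 127 CPM in knockout against 226 and 230 CPM in wild type (-0.85). SEC61G, the gamma subunit of the translocation channel, went the other way, at 102 and 103 CPM in knockout against 67.0 and 63.2 CPM in wild type (0.66), as did the mannosyltransferase subunit DPM1 (0.56). COPI, COPII and Golgi transport had 2 rises and 14 falls of 76: KDELR1, the retrieval receptor for endoplasmic reticulum proteins, fell by 0.82 and CREB3L2, a membrane-bound transcription factor of secretory genes, by 0.66. Rab GTPases and endosomal sorting had 1 rise and 4 falls of 74, near or under the share of all tested genes.

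Fatty acid, phospholipid and sphingolipid synthesis had 1 rise and 22 falls of 73, or 30.1% lower, with a median of -0.21 (-0.18 and -0.25 by library). MBOAT7, which remodels phosphatidylinositol, fell by 0.66, the sphingolipid hydroxylase DEGS2 by 1.96 and the lysophosphatidylcholine acyltransferase LPCAT2 by 2.99. ACACA, the acetyl-CoA carboxylase that commits carbon to fatty acid synthesis, was the 1 member that rose, with 249 and 243 CPM in knockout against 185 and 188 CPM in wild type (0.40). Fatty acid oxidation and peroxisomes had 3 rises and 6 falls of 59 with a median of -0.05, and its 15.3% called is near the 14.0% of all tested genes, with CPT1A, the gate of mitochondrial uptake, among the falls (-0.58). In arachidonate and purinergic signalling, PTGS1, cyclooxygenase 1, had 3.27 and 2.83 CPM in knockout against 20.1 and 24.9 CPM in wild type (-2.88), the thromboxane receptor TBXA2R fell by 1.02, and the prostaglandin receptor PTGER3 rose by 1.41.

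Membrane transporters also fell more often than they rose. Ion channels and pumps had 4 rises and 23 falls of 77 (median -0.32). The falls took in ATP2A3, a calcium pump of blood cells (403 and 409 CPM in knockout, 825 and 775 CPM in wild type, -0.98), TRPV2 (-0.74), a cation channel, and STIM1 (-0.74), a calcium sensor on the chromosome 11 stretch. RYR2, a calcium release channel best known in heart, rose to 43.6 and 43.9 CPM in knockout against 13.3 and 11.8 CPM in wild type (1.80). Solute carriers, taken by symbol, had 8 rises and 37 falls of 218 (median -0.18). Among amino acid and glucose transporters 1 rose, SLC2A1 (0.29), the glucose carrier GLUT1, and 9 of 38 fell, with SLC38A1 at -0.46, SLC2A3 at -0.40 and SLC16A10 at -1.93.

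Of the developmental signalling lists, Notch had 1 rise and 8 falls of 31 (median -0.23), or 25.8% lower against 8.79% of all tested genes. The receptor NOTCH1 had 38.4 and 41.2 CPM in knockout against 78.4 and 72.0 CPM in wild type (-0.92), NOTCH2 fell by 1.80 and the target gene HES1 by 0.75, while MAML2, a co-activator, rose by 0.45. TGF-beta and BMP signalling had 2 rises and 11 falls of 41 (26.8% lower): the inhibitory SMAD6 fell by 1.19, the BMP target ID3 by 2.21, and SMAD3 (0.29) and BAMBI (0.57) rose. Wnt signalling had 0 rises and 6 falls of 38, and the 15.8% called is near the 14.0% of all tested genes. Its falls took in the receptors FZD4 (-1.22), LGR6 (-2.53) and LGR4 (-1.09, on the chromosome 11 stretch). G protein subunits and their regulators had 6 rises and 12 falls of 59 (10.2% higher and 20.3% lower), with RGS6 up by 1.71 and RGS10 (-0.71), ADCY7 (-0.55) and the receptor kinase GRK3 (-0.96) down. The NF-kappa B and TNF family was even, at 5 rises and 5 falls of 37; TNFAIP3, the deubiquitinase A20, rose to 26.7 and 29.6 CPM in knockout against 10.6 and 10.4 CPM in wild type (1.43).

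Fewer lists leaned up. Proteasome genes had 13 rises and 2 falls of 51, or 25.5% higher against 5.17% of all tested genes, with a median of 0.15 (0.20 and 0.14 by library). Above both wild type libraries lay 35 members and below both 6, or 80.4% outside the wild type range, against 68.6% of all tested genes. UCHL5, a deubiquitinase of the particle, had 173 and 176 CPM in knockout against 127 and 128 CPM in wild type (0.45), PSMG1, an assembly chaperone, rose by 0.46 and PSMA7, a core subunit, by 0.50. The falls were PSMB8, the immunoproteasome subunit (-1.09), and PSMD13 (-0.28), which is on the chromosome 11 stretch. Chaperonin and prefoldin had 4 rises and 0 falls of 21 (median 0.17), with HSPE1 (0.59), VBP1 (0.46) and PDRG1 (0.37). Each of these rises was under 1 log2 unit.

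Cohesin, condensin and kinetochore genes had 7 rises and 0 falls of 68 (median 0.11). The 10.3% called is under the 14.0% of all tested genes, and 10.3% rose against 5.17% of all. The rises took in NCAPD3, a condensin II subunit (181 and 172 CPM in knockout, 128 and 134 CPM in wild type, 0.42), HJURP, the centromere histone chaperone (0.44), and the kinetochore protein SPC25 (0.50). The list of mRNA decay had 6 rises and 1 fall of 63, so that 9.52% rose against 5.17% of all tested genes while the 11.1% called is under the 14.0% of all. It held HBS1L, which rescues stalled ribosomes, at 262 and 265 CPM in knockout against 194 and 197 CPM in wild type (0.43), DCPS, the scavenger decapping enzyme, at 0.51 and the exonuclease XRN2 lower by 0.33. Serine, one-carbon and polyamine metabolism had 6 rises and 1 fall of 46, with a median of 0.07. The 15.2% called is near the 14.0% of all tested genes. A larger share rose than the 5.17% of all, and 2.17% fell against 8.79% of all. ODC1, the first enzyme of polyamine synthesis, had 618 and 606 CPM in knockout against 381 and 386 CPM in wild type (0.67), and CTH (0.79), of cysteine synthesis, and PSPH (0.79), the last step of serine synthesis, rose. PHGDH, the first step of the same serine route, was the fall, with 252 and 261 CPM in knockout against 488 and 484 CPM in wild type (-0.92).

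The cell cycle lists were split. Cyclins, their kinases and inhibitors had 7 rises and 7 falls of 58: CDKN1A, CKS2 (0.61) and CKS1B (0.40) rose, and CDK18 (-2.26) fell, as did WEE1 (-0.70) and CDKN1C (-0.92), which lie on the chromosome 11 stretch. Replication origin and fork proteins had 4 rises and 4 falls of 70, with the licensing factors ORC1 (-0.79) and CDT1 (-0.73) lower and POLE4 (0.61) and DBF4 (0.45) higher. DNA repair had 4 and 4 of 92, ATM rising by 0.46 and CHEK1 by 0.40. Nucleotide synthesis had 6 rises and 3 falls of 59, NME1 (0.61), CMPK2 (0.60) and DTYMK (0.48) against RRM1 (-0.87) and AMPD3 (-0.70) on the chromosome 11 stretch and DCK (-0.58). The share called was 24.1% for the cyclin list, above the 14.0% of all tested genes, and 15.3% for nucleotide synthesis, near it. Replication proteins, at 11.4%, and DNA repair, at 8.7%, were under the share of all tested genes. The list of BCL2 family and caspase genes had 4 rises and 2 falls of 46, a share called near that of all tested genes. In that list BCL2 fell, with 27.5 and 26.5 CPM in knockout against 48.2 and 49.2 CPM in wild type (-0.85), as did BMF (-0.93). PMAIP1 (0.56) and BCL2L11 (0.33) rose.

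Transcription factor families moved gene by gene, with medians near 0. The share called was 27.8% for SOX, FOX, ETS and KLF factors and 25.6% for nuclear receptors, above the 14.0% of all tested genes. Homeobox factors had 14.3% called, near that share, and ZNF genes 9.54%, under it. Of 54 SOX, FOX, ETS and KLF factors 7 rose and 8 fell: ETS1 rose by 2.47 at a low level, SOX5 by 0.71 and SOX6 by 1.62, the last on the chromosome 11 stretch against its neighbours, and FEV, FOXN3 (-0.70) and ETV6 (-0.56) fell. Of 56 homeobox factors 5 rose, HHEX to 265 and 264 CPM in knockout against 160 and 158 CPM in wild type (0.73), and 3 fell, SATB1 (-2.24), HOXA10 (-2.23) and MEIS3 (-1.02). Nuclear receptors had 6 rises and 4 falls of 39; the orphan receptor NR2F2 had 277 and 278 CPM in knockout against 151 and 141 CPM in wild type (0.93), the progesterone receptor PGR rose by 1.46 and the clock repressor BHLHE40 fell by 0.79. ZNF genes had 18 rises and 19 falls of 388. Several lists were close to still: 1 of 66 chromatin remodellers (HMGA2) and 1 of 44 cilium genes (KIF7, -0.95) were called, which is under the 14.0% of all tested genes.

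**Figure D3:**
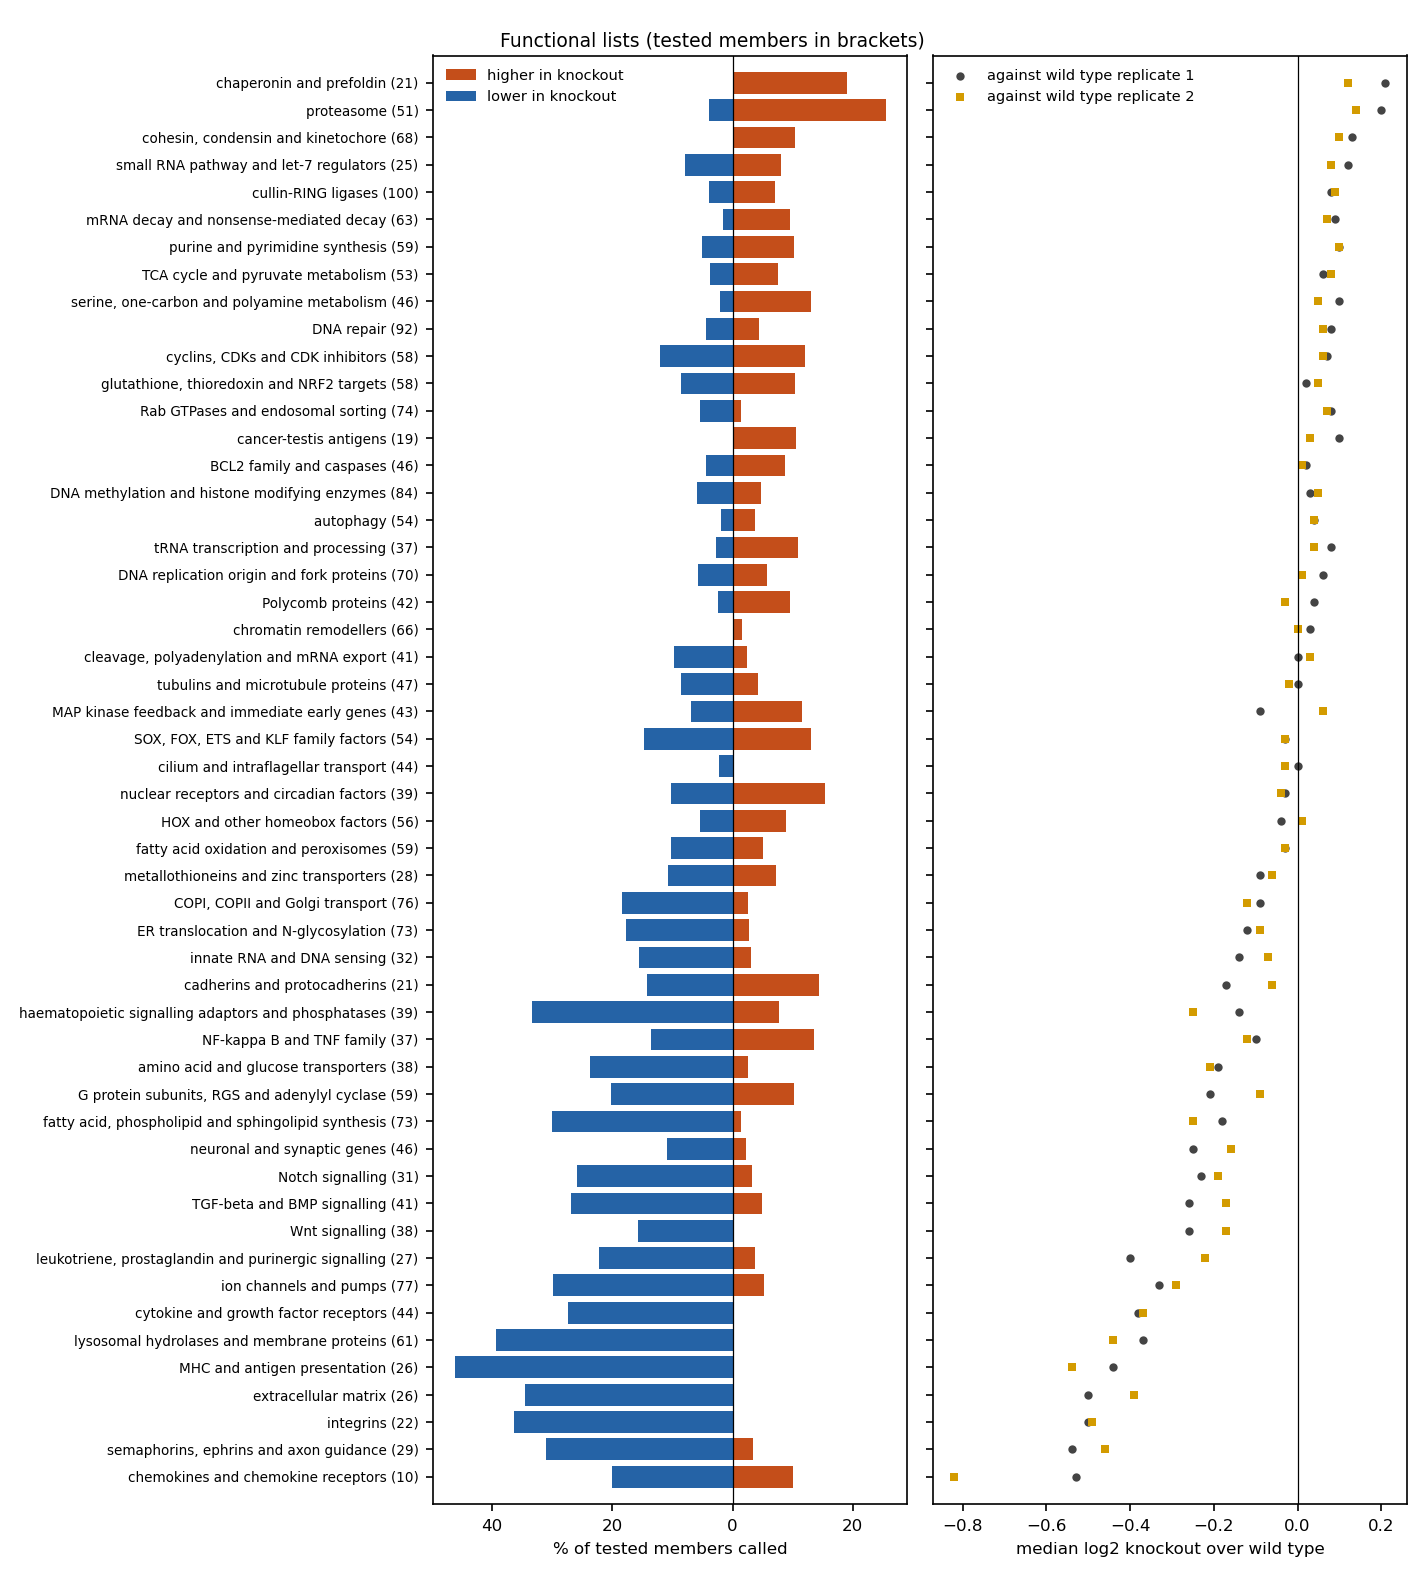
For 52 of the 53 functional lists, ordered by median, the left panel gives the percentage of tested members called higher (orange, to the right) or lower (blue, to the left) in knockout, and the right panel the median log2 ratio of knockout to wild type replicate 1 (circles) and replicate 2 (squares). MHC and antigen presentation (46.2% lower), lysosomal genes (39.3%) and integrins (36.4%) have the longest blue bars among the lists with no rise, and proteasome genes (25.5%) the longest orange bar.

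DESeq2 called fewer of the genes named in these lists. Beside those marked above, it did not call the rises of BAMBI, BCL2L11, BNIP3, CHEK1, CKS1B, CXCL2, DBF4, DCPS, HJURP, MAML2, PDRG1, PMAIP1, POLE4, SLC2A1, SMAD3 and SPC25. Nor did it call the falls of ACKR2, DCHS1, HOXA10, KIF7, LGR4, MEIS3, PSMB8, PSMD13 and XRN2, or that of CSTF3 near NAT10.

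Non-coding genes leaned the other way from protein-coding genes. Of 1354 tested genes with a non-coding reference type, 66 rose and 42 fell, a share called of 7.98%, and their median was 0.16, or 0.20 and 0.13 by wild type library. Protein-coding genes had 710 rises and 1323 falls of 12089 (16.8% called) and a median of -0.02. Long non-coding RNAs alone had 61 rises and 35 falls of 1155, so that 63.5% of their calls were rises, against 34.9% of protein-coding calls. Whether the 2 shares differ beyond chance was not tested. DESeq2 called 20 non-coding genes higher and 20 lower, so the excess of rises among non-coding calls was absent there. No source used here gives the strand setting, so reads of an antisense or divergent RNA and the gene beside it could not be told apart.

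By symbol, LINC genes had 18 rises and 13 falls of 260 (median 0.16), antisense genes 21 and 13 of 482 (0.15) and divergent transcripts 6 and 0 of 250 (0.24, or 0.25 and 0.26 by wild type library). The share called was 11.9% for LINC genes and 7.05% for antisense genes, both under the 14.0% of all tested genes. Divergent transcripts start at the promoters of coding genes, and 124 of the 250 were above both wild type libraries while 27 were below both. The 60.4% outside the wild type range is under the 68.6% of all tested genes, of which 34.1% were above and 34.5% below. Few single members passed the test, and the 2.40% called is under the 14.0% of all tested genes. POLG-DT was the most abundant of the called ones, at 184 and 189 CPM in knockout against 49.4 and 97.8 CPM in wild type, so that its rise was 1.91 against replicate 1 and 0.93 against replicate 2. DESeq2 did not call it, nor OIP5-AS1, SNHG6, SNHG17 or the mitochondrial MT-TY below. LINC00534 is among the LINC rises, at 32.0 and 30.3 CPM in knockout against 11.2 and 13.6 CPM in wild type (1.32).

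Among long non-coding genes at 2 or more on the mean log2 CPM scale, the largest called rises took in XACT, a primate RNA that coats the active X chromosome in human pluripotent cells, with 42.3 and 44.9 CPM in knockout against 13.5 and 13 CPM in wild type (1.72, SE 0.12, edgeR adjusted p = 0.000244). LINC00656 had 18.2 and 17.6 CPM in knockout against 3.86 and 5.72 CPM in wild type (1.89). H19, the imprinted fetal RNA, had 6.33 and 6.52 CPM in knockout against 2.07 and 1.93 CPM in wild type (1.68), and it lies on the chromosome 11 stretch, where most genes fell. WAKMAR2 (1.56), which neighbours TNFAIP3, and PRKAR1B-AS1 (1.79), whose coding partner PRKAR1B rose by 0.58, were also higher. Of the falls, AFAP1-AS1 had 15.2 and 16.5 CPM in knockout against 52.8 and 49.9 CPM in wild type (-1.69), LINC01097 fell by 1.81 and MIR9-1HG, the host of a neural microRNA, by 1.82. SH3RF3-AS1 had 6.05 and 5.88 CPM in knockout against 95.0 and 16.9 CPM in wild type, and LINC01750 8.71 and 7.48 CPM in knockout against 37.9 and 20.0 CPM in wild type. For the last pair the size of the fall is set by wild type replicate 1, and DESeq2 did not call either, nor H19.

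The class of nuclear retained and abundant long non-coding RNAs had 4 rises and 0 falls of 15, with a median of 0.33. That is 26.7% risen, against 5.17% of all tested genes. The 4 rises include H19 (1.68), given above at a low level and not called by DESeq2. Not every member is abundant, as HOTAIRM1 had 4.44 and 4.33 CPM in knockout against 3.01 and 3.63 CPM in wild type. Above both wild type libraries lay 12 (80.0%, against 34.1% of all tested genes) and below both 2 (13.3%, against 34.5%). MALAT1, a nuclear speckle RNA, had 4050 and 4070 CPM in knockout against 2970 and 2830 CPM in wild type (0.48, SE 0.097, edgeR adjusted p = 0.0159). NEAT1, the scaffold of paraspeckles, had 524 and 537 CPM in knockout against 391 and 355 CPM in wild type (0.51). OIP5-AS1, which binds HuR, rose by 0.37, with 253 CPM in both knockout libraries against 182 and 209 CPM in wild type. NORAD, the sponge of Pumilio proteins, had 735 and 744 CPM in knockout against 580 and 628 CPM in wild type and did not pass (0.29), and the imprinted MEG3 was alike in all libraries (635 and 635 CPM in knockout, 691 and 644 CPM in wild type, -0.07). Hosts of small nucleolar RNAs were mixed, with SNHG5 (-0.51) and SNHG6 (-0.30) lower and SNHG17 (0.30) higher.

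Small structured RNAs were where the wild type libraries parted most. The knockout libraries gave spliceosomal snRNAs 2.63% of counts each, against 1.33% in wild type replicate 1 and 2.91% in replicate 2. Y RNAs took 0.967% and 0.963% in knockout against 0.447% and 1.09% in wild type, and small nucleolar RNAs 0.359% and 0.360% in knockout against 0.320% and 0.477% in wild type. In each class the knockout share of counts lay between those of the wild type libraries. The median over tested members was 0.77 and 0.15 against the wild type libraries for 28 snRNAs and 2.01 and 0.13 for 3 Y RNAs, positive against both. RNU4-2, a U4 snRNA copy, had 10400 and 10500 CPM in knockout against 4980 and 12900 CPM in wild type, which is 1.07 above replicate 1 and 0.30 below replicate 2. RNY1 was 0.91 above the one and 0.32 below the other, and the median of 135 small nucleolar and Cajal body RNAs was 0.38 and -0.16. The sign of the median turned with the wild type library for small nucleolar RNAs, and for snRNAs and Y RNAs its size did. What set the libraries apart was not tested.

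Vault RNAs and 7SL RNA were above both wild type libraries. Vault RNAs are short polymerase III transcripts of the vault particle, and their share of counts was 0.461% and 0.460% in knockout against 0.124% and 0.260% in wild type. VTRNA1-2 had 998 and 1010 CPM in knockout against 220 and 394 CPM in wild type (1.71, SE 0.26, edgeR adjusted p = 0.00524). VTRNA1-3 had 677 and 678 CPM in knockout against 348 and 493 CPM in wild type (0.69), and VTRNA1-1 had 2960 and 2930 CPM in knockout against 646 and 1780 CPM in wild type and was not called (1.28, edgeR adjusted p = 0.0963). All 3 lie above both wild type values, by 0.46 to 1.35 against replicate 2 and by 0.96 to 2.19 against replicate 1. RN7SL3, a copy of the signal recognition particle RNA, rose by 0.72, and its near-identical copy RN7SL1 did not pass (30800 and 30600 CPM in knockout, 21300 and 27500 CPM in wild type, 0.33). RNU6-9, a U6 copy, had 322 and 324 CPM in knockout against 23.3 and 84.0 CPM in wild type (2.57). DESeq2 called none of the vault RNAs or RNU6-9, and reads among U6 or 7SL copies are uncertain.

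**Figure D4:**
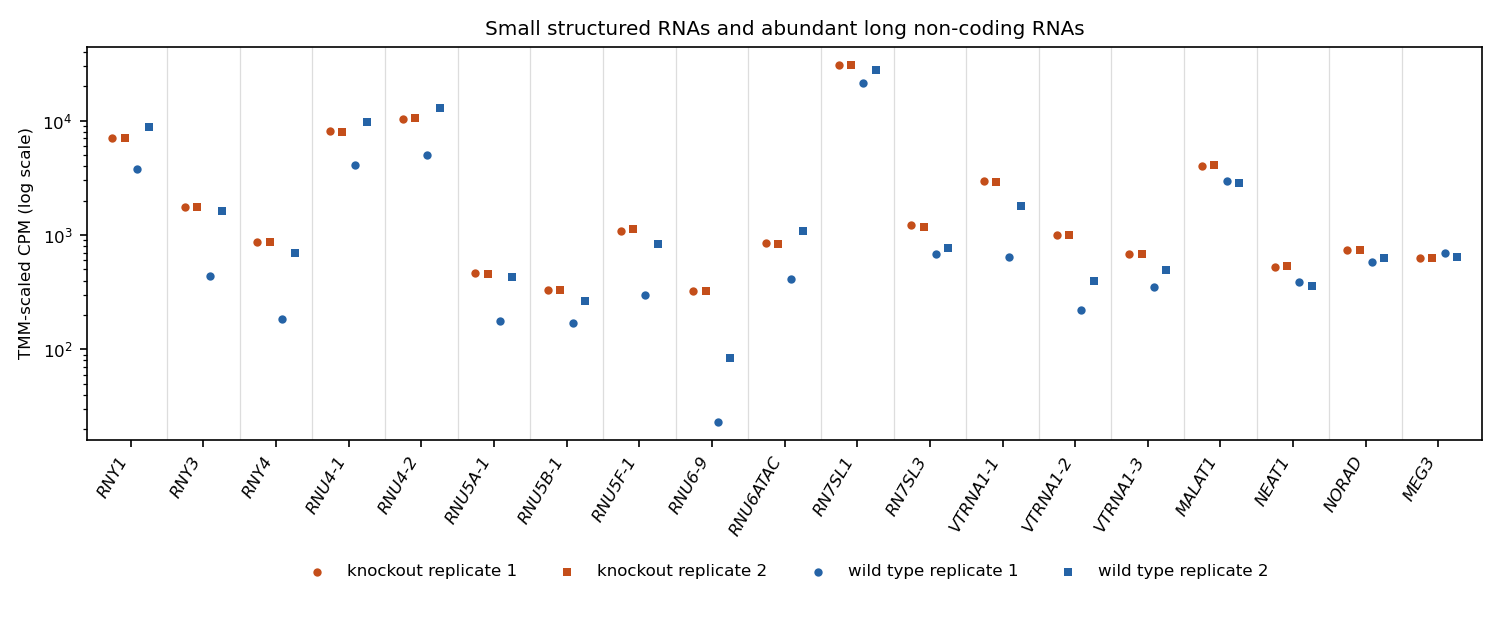
TMM-scaled CPM on a log axis for small structured RNAs and 4 abundant long non-coding RNAs; orange marks are knockout and blue marks wild type libraries, circles replicate 1 and squares replicate 2. The blue circle lies below the blue square for every small RNA shown, and for RNY1, RNU4-1, RNU4-2 and RNU6ATAC the knockout marks fall between them.

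Primary microRNA genes gave few counts in this total RNA assay: 25 were tested, 0 rose and 2 fell. MIR4508 had 2.89 CPM in both knockout libraries against 38.1 and 12.1 CPM in wild type (-3.10), and MIR4488 had 2.83 and 2.99 CPM in knockout against 18.5 and 6.85 CPM in wild type (-2.10). MIR4508 had -3.68 and -2.03 against the wild type libraries and MIR4488 -2.62 and -1.20, and DESeq2 called neither. The mature product of MIR4488, as RefSeq gives it (GRCh38.p14), is shown to place its guanine-rich sequence beside the counts of the gene, with its seed (bases 2 to 8) in capitals.
hsa-miR-4488, chr11:61508599-61508616 (+ strand): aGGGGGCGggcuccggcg
Fragments of this size are not a measure of mature microRNA, and no source used here says whether the library kept them.

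Of 29 mitochondrially encoded RNAs tested, 2 rose and 2 fell, and the 13.8% called is near the 14.0% of all tested genes. The falls were both ribosomal RNAs: MT-RNR1, the 12S RNA, had 13.9 and 13.4 CPM in knockout against 78.0 and 54.0 CPM in wild type (-2.27, SE 0.21, edgeR adjusted p = 0.000716), and MT-RNR2, the 16S RNA, had 53.9 and 51.0 CPM in knockout against 260 and 214 CPM in wild type (-2.18, SE 0.13). The groups did not overlap in either, as in every called gene. None of the 13 tested mitochondrial mRNAs was called; MT-CO1 had 17.0 and 18.1 CPM in knockout against 26.2 and 20.1 CPM in wild type, and MT-ND4 had 42.4 and 41.0 CPM in knockout against 54.7 and 46.0 CPM in wild type. Among the tRNAs MT-TP (1.37) and MT-TY (1.40) rose, and most others followed the pattern of the small nuclear RNAs, such as MT-TT with 70.9 and 68.7 CPM in knockout against 32.1 and 80.2 CPM in wild type. No source used here says how ribosomal RNA was removed, and nuclear copies of mitochondrial sequence can share these reads.

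Along the chromosomes, chromosome 11 stood apart. It had 42 rises and 182 falls among 834 tested genes (26.9% called, median -0.15), while the medians of the other placed chromosomes lay between -0.05 and 0.06. From its start up to the gene before NAT10, 177 protein-coding genes had a median of -0.57 (-0.58 and -0.57 by wild type library). Of these, 160 lay below both wild type libraries, as did 34.5% of all tested genes. The edge sat at NAT10 itself. Of the 10 tested coding genes next to it on the side of the chromosome start, 9 fell, from CSTF3 (-0.41) to CD59 (-1.01), with CAPRIN1 (-0.66) and LMO2 (-0.70), a haematopoietic transcription co-factor, the nearest pair. Of the 10 on the other side none was called, with folds between -0.97 (EHF, -0.24 and -1.27 by wild type library) and 0.64 (ABTB2, the next gene, 0.52 and 0.73) and a median of 0.08. The genes off this stretch numbered 16062, with 835 rises and 1316 falls.

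Calls that rose within the stretch were 6: HBG1, HBG2, HBD, H19, SOX6 and MICAL2. The median over its 37 tested genes that are not protein-coding was -0.66, with -0.38 and -0.53 by wild type library. No functional list turned direction when the genes of the stretch were left out.

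Shorter runs of neighbours also moved together, found as at least 5 consecutive coding genes whose running median over 31 genes passed 0.25 log2 units in the fit and against each wild type library. The rule picks runs by these same values, so their direction and medians follow in part from it. Over all tested genes, 34.1% lay above both wild type libraries and 34.5% below both, while 5.17% rose and 8.79% fell. On the long arm of chromosome 11, the 12 genes between EI24 and ST3GAL4 were all above both wild type libraries, with 6 rises and a median of 0.45: EI24 had 372 and 363 CPM in knockout against 213 and 233 CPM in wild type (0.72), and CHEK1, DCPS and FOXRED1 (0.62) lie here. On chromosome 12, 8 of 15 genes between C2CD5 and MED21 rose (median 0.46), among them SOX5, INTS13 (0.71) and FGFR1OP2 (0.70). On chromosome 19, 3 of 11 genes between ZNF772 and ZNF586 rose (median 0.38), and 2 runs were lower: KHSRP to C3, with 3 falls of 8, and CLASRP to PPP1R13L, with 5 falls of 12 (each with a median of -0.39). In the last, EXOC3L2 fell by 0.64, TRAPPC6A by 0.84 and the p53 regulator PPP1R13L by 1.16. DNA copy number was not measured, and whether it moves with any of these runs was not tested.

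**Figure D5:**
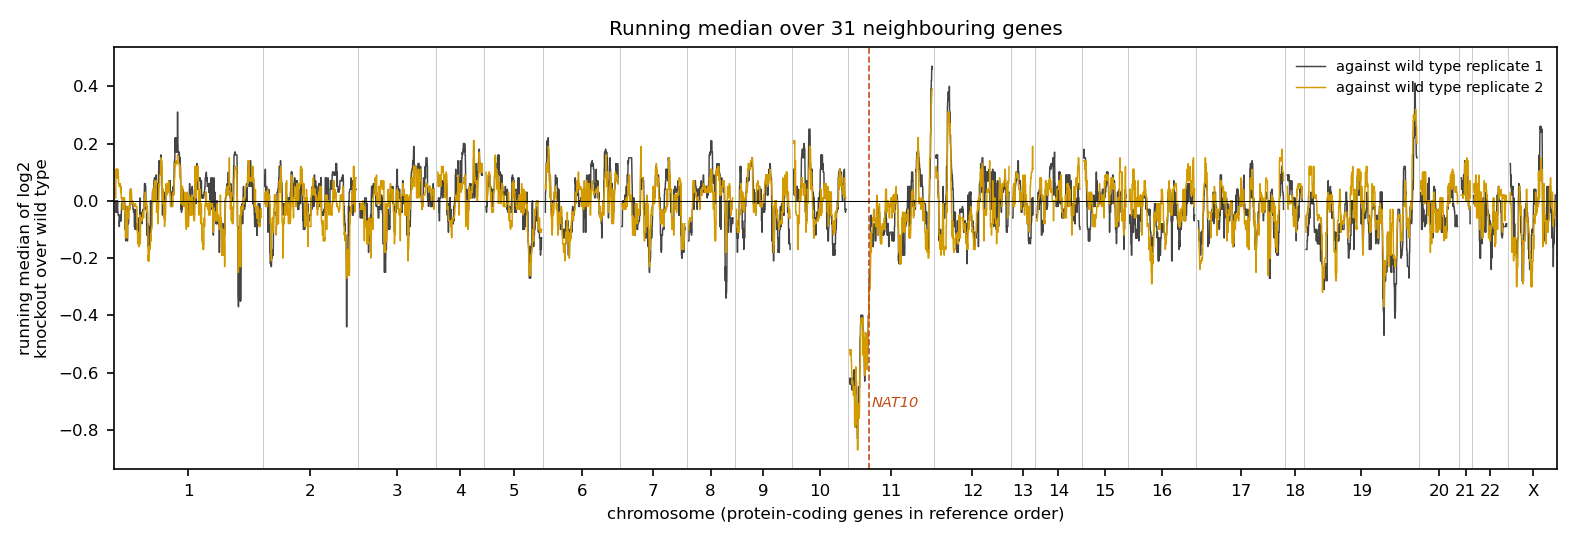
Running median over 31 neighbouring tested protein-coding genes of the log2 ratio of knockout to wild type replicate 1 (dark line) and replicate 2 (yellow line), in reference gene order by chromosome; the dashed line marks NAT10. Both lines lie below zero from the start of chromosome 11 up to NAT10, where 177 genes have a median of -0.57, and return to near zero after it.

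Some large differences did not pass. At the same abundance, 5 or more in mean log2 CPM, the largest folds not called were CAMK1D (-1.35), VTRNA1-1 (1.28), RNU5E-4P (1.21), RNU5D-1 (1.19), RN7SKP160 (-1.17) and RNU6-4P (1.16). CAMK1D, a calmodulin-dependent kinase, had 20.1 and 21.8 CPM in knockout against 84.2 and 23.6 CPM in wild type, so that it was 2.00 below replicate 1 and 0.17 below replicate 2. RN7SKP160 had 88.4 and 94.4 CPM in knockout against 344 and 68.9 CPM in wild type and changed sign between them. The genes with the widest gap between the wild type libraries at this level were SH3RF3-AS1, RN7SKP160, RNY3, RNY4, RNU5D-1 and RNU6-9, all of them non-coding or copies of non-coding RNAs.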

How the data were processed

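RNA-seq of total RNA was analysed in 2 NAT10 knockout and 2 wild type K562 libraries. The deposited files hold raw exon counts for each gene as whole numbers; per the file headers, duplicates had been removed from the alignments before counting. Tools listed in the submitters' processing notes include STAR, featureCounts, SAMtools, Trimmomatic and cutadapt, with the build GRCh38.p13 and no roles. Removing duplicates without molecular identifiers can lower short abundant transcripts. Of 60616 gene identifiers kept (44 pseudoautosomal Y copies left out), 60419 had a symbol and 40216 matched a RefSeq gene (GRCh38.p14), which gave gene type and order.

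Counts were fitted with edgeR 4.0.16 (R 4.3.3): knockout libraries summed, TMM, filterByExpr, quasi-likelihood F test, Benjamini-Hochberg over all tested genes. The biological coefficient of variation was 9.12%, with the summed knockout taken to have the spread of wild type. Folds against 1 wild type library used log2 CPM with a prior count of 2. DESeq2 1.42.0 was an alternative.

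Named genes were NAT10, the 12 largest rises and falls among abundant coding genes, the 8 among non-coding genes, up to 3 members per list and direction, large folds not called, genes with the widest wild type gap, and ends of chromosome runs; others named, such as whole small classes and neighbours of NAT10, were chosen after their values were seen. The members, the 53 lists and the 12 symbol classes were chosen with earlier results of these data known, so lists are described by counts and medians and not tested. Intervals cover counting error only. Counts limit precision: standard errors are largest for low genes. Some genes and 1 list that these rules would name are not reported here.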

Additional observations from a re-analysis of the deposited data

How the results depend on the processing

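The numbers of called genes depended on the tool and on how the knockout libraries were counted. With DESeq2, 1042 genes were called (287 higher, 755 lower; 40 of them non-coding, 20 and 20), 1022 of them shared with the 2271. With the knockout libraries kept apart 5476 were called (2423 higher, 3053 lower; non-coding 319, as 211 and 108), and with a replicate block added 4983 (2153 and 2830; non-coding 283, as 191 and 92). The replicate numbers showed no pairing: the correlation of same-numbered deviations was -0.014. Both fits treat near-identical knockout libraries as separate samples, and all 2271 calls were kept in each. Without a filter on low counts 3513 were called, of which 1925 were higher, and non-coding calls were 258 (184 and 74); 40 of the 3513 were genes that only this setting tested, so most of the gain was in genes tested in both, and the cause was not tested. With a mean CPM of at least 1, 146 genes lay at least 1 log2 unit above both wild type libraries, where fewer genes were tested.

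Leaving out a knockout library gave 2077 to 2116 called genes (751 to 788 higher, 1326 to 1328 lower), and 94 to 96 non-coding (57 to 58 and 37 to 38). RLE scaling called 2246. Leaving out a wild type library leaves no residual degree of freedom, so folds against the other library stand as values with no test. Of 348 named called genes 0 changed sign. That count could not have come out otherwise, because no called gene turned direction between the wild type libraries. In size, 22 moved by more than the spread between libraries without replicate 1 and 20 without replicate 2. DESeq2 did not call 118 of those 348, and in 1 of 65 lists and classes, small nucleolar and Cajal body RNAs, the median turned sign by at least 0.1 when wild type replicate 1 was left out. Counts without the chromosome 11 genes up to NAT10, an alternative chosen after seeing the data, were 835 higher and 1316 lower, and no list median turned by 0.1.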
